A study of Rattus norvegicus with 12 samples.

Results

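The genes described here are 149 markers of spermatids, the haploid germ cells that follow meiosis, with high RNA levels in rat testis. They were selected by their level in the 3 Control libraries: a gene of the study's spermatid marker list was taken when its TPM (an abundance per transcript length, scaled to the same total in each library) averaged at or above a fixed limit there, which the lowest gene taken passed with 126 TPM, and when its symbol was not among families set aside by name. The full list held 385 spermatid markers, beside 181 spermatocyte and 12 spermatogonia markers, and the series holds 31514 features once the transcripts of each marker are summed. Of the other spermatid markers, 182 lay under the limit and 54 were set aside by name, 43 of them at or above it. Because the Control levels chose the genes, comparisons with Control below are descriptions without a test, and tests are given only between stress groups.

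The samples were testes of male Sprague Dawley (SD) rats with a given age of 8 weeks, in 4 groups of 3 samples. The study gives this age with the starting weight, and a feeding period and the stress days came after it. Rats of the RS+IS_3D, RS+IS_14D and RS+IS_21D groups were held in restraint and then swam in ice water on each of 3, 14 or 21 days. The 3-day stress is called acute and the longer ones chronic. Control rats moved freely but also went without food and water during the daily sessions, so this deprivation is common to all groups. The labels do not tell which length of the experiment the Control rats belong to. With a single series of stressed rats, the number of stress days cannot be told apart from the time of sampling or from the age at sampling. Total RNA without ribosomal RNA was sequenced, with 23908048 to 29404590 estimated counts per library.

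A round spermatid turns into a sperm cell without dividing. It builds an acrosome, the vesicle that carries the enzymes for passing the egg coat, grows a flagellum and exchanges histones for transition proteins and protamines. Many of the RNAs for this remodelling are made early and stored, and the transcription factor CREM, which binds the cAMP response element, is a known activator of spermatid genes.

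Promoters were searched for that element, TGACGTCA, on both strands, as the site that CREM binds. RefSeq promoters (build GRCr8, 250 bases before to 50 after the gene start) were matched for 128 of the 149 members. The element stood in 6 of these 128 (4.69%), in 6.08% of the promoters of spermatid markers under the limit, in 3.27% of those of spermatocyte markers and in 2.0% of the 27457 promoters of all genes. Its shorter core TGACG, which the longer element contains, was found in 28.9% of the members and 23.0% of all promoters. Spermatid markers under the limit had it in 31.8% and spermatocyte markers in 32.0%, both above the share of the members. These shares are descriptions of letters in a window and not of binding, and a link to the differences between stress groups was not tested. The windows with the element upstream of the start are shown with TGACGTCA in capitals, followed by the core alone in capitals for Hk1 and Tssk6, a highly abundant member and the member with the highest fold change.
Crem, chr17:58984716-58984773, plus strand gene: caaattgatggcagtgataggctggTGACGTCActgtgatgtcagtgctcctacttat
Crem, second start, chr17:58985430-58985487, plus strand gene: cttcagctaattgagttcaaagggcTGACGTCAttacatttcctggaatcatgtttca
Fam71e1, chr1:104125455-104125500, plus strand gene: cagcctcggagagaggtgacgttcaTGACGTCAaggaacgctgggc
Habp4, chr17:963400-963457, minus strand gene: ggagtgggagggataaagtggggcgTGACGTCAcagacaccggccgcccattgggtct
Mlf1, chr2:153958466-153958523, plus strand gene: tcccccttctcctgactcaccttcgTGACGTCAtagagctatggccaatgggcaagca
Znrf4, chr9:1441720-1441777, minus strand gene: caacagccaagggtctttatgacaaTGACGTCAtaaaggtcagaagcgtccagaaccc
Hk1, chr20:30874909-30874963, minus strand gene: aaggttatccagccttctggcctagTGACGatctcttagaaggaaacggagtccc
Tssk6, chr16:19559993-19560047, minus strand gene: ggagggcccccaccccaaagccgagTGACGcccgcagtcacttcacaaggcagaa

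Genes with the element did not share 1 pattern across the stress groups. Habp4, an intracellular hyaluronan-binding protein, had 176, 198 and 178 CPM in the 3-day group (counts relative to the library total, scaled between libraries), 219, 214 and 227 in the 14-day group and 233, 268 and 228 in the 21-day group, so all 6 libraries of the longer stress lay above those of the 3-day group. Crem itself had 198, 198 and 192 CPM after 3 days, 198, 192 and 192 after 14 days and 184, 204 and 184 after 21 days, and its libraries overlapped throughout. Mlf1 and Znrf4 also overlapped between the stress groups, with log2 fold changes of 0.07 and 0.10. In Morn3, the other member with the element, the match lay across or after the annotated starts, and its log2 fold change was 0.21.

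In Control, the 149 members ranged from 126 to 8836 TPM around a median of 233 TPM. Together they held 5.41 to 6.27% of all TPM. Oaz3, the testis form of ornithine decarboxylase antizyme, which limits polyamine synthesis, stood far above the others at 8836 ± 893 TPM (SD, n = 3). Iqcf3, whose IQ motif is of the calmodulin-binding kind, followed at 1961 ± 220.3 TPM, and Gsg1, a germ cell protein that binds a testis poly(A) polymerase, at 1920.2 ± 199 TPM. Iqcf3 and Gsg1 lay within their SDs of each other, whereas Oaz3 did not overlap with either. The SDs include differences between libraries that most members share, so they do not tell how stable the order is within a library.

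The order went on with Hmgb4, a spermatid chromatin protein of the HMG box family, at 1488 ± 139.9 TPM, Glrx2, a mitochondrial glutaredoxin, at 1282 ± 116 TPM and Gapdhs, the sperm form of the glycolytic enzyme GAPDH, at 1217 ± 101 TPM. Lrrc51 had 1023 ± 55.3 TPM. The proteasome subunit Psma6 had 981 ± 61.8 TPM, the hexokinase Hk1 927 ± 74.2 TPM and the spermatid linker histone Hils1 901 ± 61.8 TPM (SD, n = 3 for each). Among these neighbours only Gsg1 and Hmgb4, and Gapdhs and Lrrc51, stood further apart than their SDs together.

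At the edge of the selection, Ppm1a with 126 TPM, Pdzk1ip1 with 129 TPM and Pwwp2b with 130 TPM were just inside. Lgals8 with 124.6 TPM, Lpin1 with 123 TPM and Micalcl with 122 TPM were just outside. Had the 3-day libraries set the limit in place of Control, 154 markers would have entered, 148 of them shared with the 149.

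The members rested on 206 transcripts, with a single transcript for 110 members and 2 or more for 39. Their main transcripts were short, with a median of 1390 bases against 1949 bases for all transcripts at 1 TPM or more in Control. All transcripts at or above the limit had a median of 1107 bases, so short length goes with the selection itself. Zfp37, a zinc finger gene, is an extreme case: a transcript of 322 bases gave it 161 TPM at only 8.14 to 11.5 CPM over the 12 libraries.

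Libraries within a group differed in a coordinated way before any group is compared. Control 1 was the lowest of its group for 140 members, against 36.2% of all features. In the 3-day group, replicate 1 was lowest for 115 members (37.2% of all features), and in the 14-day group replicate 2 was lowest for 116 (33.8%). Replicate 2 of the 21-day group was the highest for 139 members, against 34.9% of all features. Relative to the 3-day mean, the median member stood at -0.12, 0.18 and 0.11 (log2) in the 3 Control libraries, -0.06, 0.05 and 0.01 in the 3-day, 0.18, 0.07 and 0.21 in the 14-day and 0.11, 0.34 and 0.19 in the 21-day libraries. The scaling factor of Control 1 was the highest of all libraries (1.04) and that of 21-day replicate 2 the lowest (0.952), and their part in this order was not tested.

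**Figure D1:**
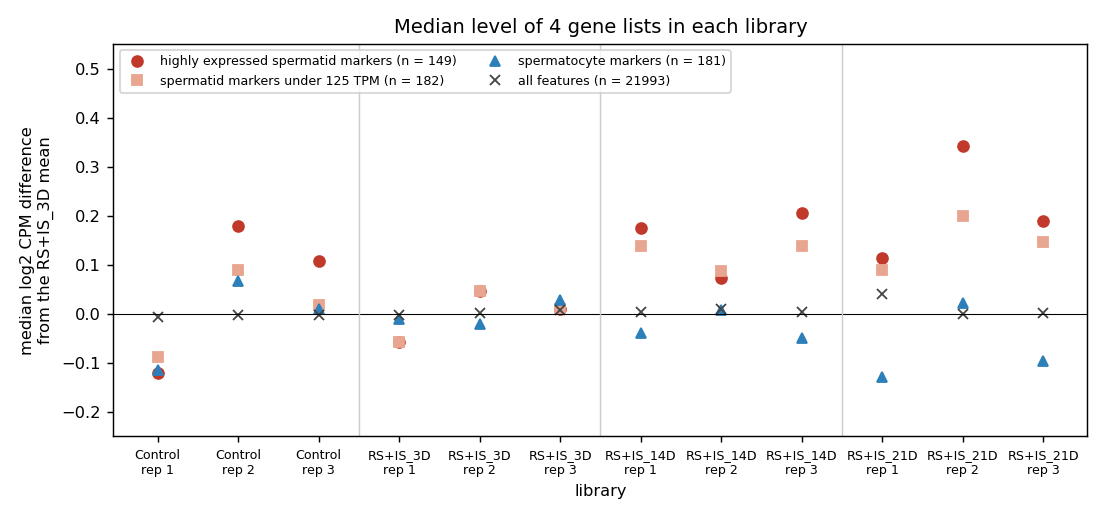
Median log2 CPM difference from the mean of the 3 RS+IS_3D libraries (vertical axis) in each of the 12 libraries (horizontal axis) for the 149 highly expressed spermatid markers, 182 spermatid markers under the TPM limit of the selection, 181 spermatocyte markers and 21993 features. The 6 libraries of 14 and 21 days lie at 0.07 to 0.34 for the members, the Control libraries range from -0.12 to 0.18, and all features stay near 0.

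Longer stress was compared with the 3-day group to see how spermatid RNA differed between acute and chronic stress. The members lay higher as a set in the 14-day and 21-day libraries, by a modest amount: the median log2 fold change of the 6 chronic libraries over the 3 acute ones was 0.16 (1.12-fold), while that of all 21658 features tested was -0.02. Of the 149 members, 134 had a positive value. No member passed the edgeR test at an adjusted p of 0.05, where 0.0139% of all features did, so no single gene is called changed by that test. At an unadjusted p of 0.05, 80 members differed, against 19.4% of all features, and 79 of these were higher, against 9.45% of all features. With median-of-ratios scaling, 2337 features were higher and 1593 lower in place of 2046 and 2166, and 95 members were higher.

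The outcome of the gene test depended on the tool. DESeq2 called 61 members higher and 0 lower in the same comparison, where it called 3.35% of all features higher. In 73 members every chronic library lay above every 3-day library, against 6.58% of all features, and in 0 members was the order the reverse. In whole testis, fewer cells of a type and less RNA per cell cannot be told apart, and the same holds for more.

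Separate fits of the chronic groups gave similar medians. For 14 against 3 days the median of the members was 0.15, 137 of 149 values were positive and 75 were higher at an unadjusted p of 0.05 (7.73% of all features). That count was 49 without replicate 1 of the 3-day group, and 48 and 46 without replicates 1 and 3 of the 14-day group. The edgeR test called 0 of them after adjustment (0% of all features) and DESeq2 called 38 higher (1.16% of all features). For 21 against 3 days the median was 0.18, 134 values were positive and 80 members were higher at an unadjusted p of 0.05 (8.23% of all features). There edgeR called 0 members (0.00472% of all features) and DESeq2 called 52 higher (2.03% of all features). Both comparisons use the same 3 acute libraries, so they are not separate evidence.

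Between 14 and 21 days little difference was detectable. The median of the members was 0.06, edgeR called 0 (0% of all features), DESeq2 called 0 (0.0469% of all features), and 2 members, Cdrt4 and Iqcf3, were higher at an unadjusted p of 0.05 (1.71% of all features). Without replicate 2 of the 21-day group the median was -0.0016, so the direction at this step rests on that library. The count at an unadjusted p of 0.05 was 14 without replicate 1 and 5 without replicate 3 of the 21-day group, and 1 without replicate 2 or replicate 3 of the 14-day group.

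**Figure D2:**
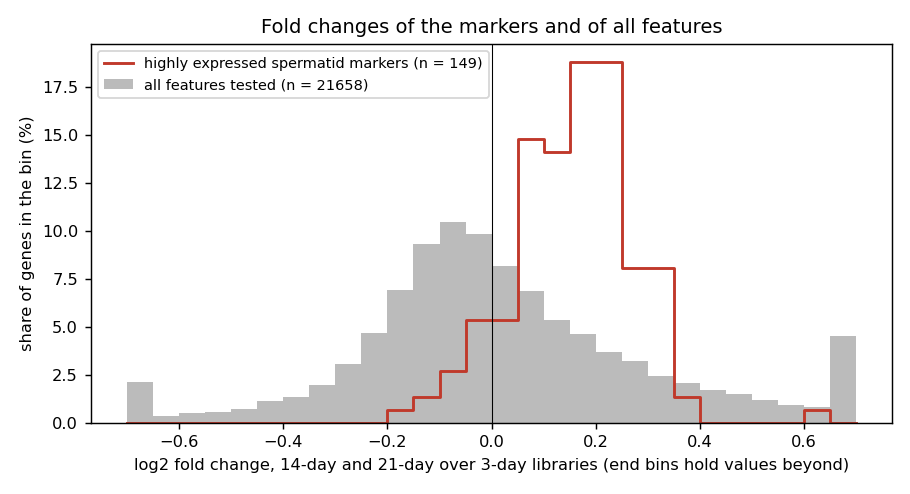
Share of genes in percent (vertical axis) in bins of the log2 fold change of the 6 libraries of 14 and 21 days over the 3 libraries of 3 days (horizontal axis), for the 149 members (line) and 21658 features (bars). The members peak to the right of 0 around their median of 0.16, and the features peak slightly to the left of 0 with longer tails on both sides.

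Tssk6 (ENSRNOT00000027953.5), a kinase of the testis-specific serine/threonine family needed for the condensation of spermatid chromatin, had 134, 160.3 and 141 CPM after 3 days, 222, 209 and 199 CPM after 14 days and 199, 285 and 254 CPM after 21 days. Every chronic library lay above every acute one, and also above the Control libraries with 189, 168 and 167 CPM. Its log2 fold change was the highest of the members at 0.63 (SE 0.118, 1.54-fold), with an adjusted p of 0.0620 by edgeR and of 2.41e-05 by DESeq2. The exact two-sided permutation test of 6 against 3 libraries gave p = 0.0238, the smallest it can give, and 73 members reached it with the same order.

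Oaz3 (ENSRNOT00000028303.6), the most abundant member, came next. It had 2698, 2979 and 2923 CPM after 3 days, 3695, 3457 and 3575 CPM after 14 days and 3706, 4431 and 3769 CPM after 21 days, with no overlap between acute and chronic stress. The Control libraries had 2819.8, 3629.8 and 3386 CPM and overlapped with both. The log2 fold change was 0.37 (SE 0.0704) with an adjusted p of 0.0620 by edgeR. Without Oaz3, the members still held 4.76 to 5.07% of all TPM after 3 days, 5.11 to 5.42% after 14 days and 5.29 to 5.64% after 21 days.

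St6galnac2 (ENSRNOT00000016622.6), a sialyltransferase that adds sialic acid to glycoproteins, had the smallest p-value of the members. Its levels were 744, 799 and 818 CPM after 3 days, 952, 925 and 969.7 CPM after 14 days and 979, 1072 and 1007 CPM after 21 days, and the acute and chronic groups did not overlap. The log2 fold change was 0.30 (SE 0.0488) with an adjusted p of 0.0620 by edgeR and of 3.01e-06 by DESeq2. Spz1, a spermatogenic transcription factor with a leucine zipper, had 464, 487 and 487 CPM after 3 days against 531 to 657 CPM in the chronic libraries, and its log2 fold change was 0.31 (SE 0.0587) with an adjusted p of 0.0620 by edgeR.

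The rest of the 8 highest fold changes were between 0.33 and 0.35 on the log2 scale. They belonged to Pde1a, a calcium-dependent phosphodiesterase of cyclic nucleotides (0.35), Cdrt4 (0.35), Fam161a, a microtubule protein of cilia and centrioles (0.34), Fam71f2 (0.34), Atp1a4, the sodium pump subunit of sperm (0.34) and Txndc2, a thioredoxin of the sperm tail (0.33). All 6 chronic libraries of each lay above the 3 acute ones. Their adjusted p-values by edgeR ran from 0.0666 for Fam161a to 0.176 for Cdrt4.

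At the other end, 5 members had the lowest fold changes and none was called by edgeR or DESeq2. Glipr1l1, a sperm surface protein of egg binding, had 84.2, 90.7 and 77.7 CPM after 3 days, 73.7, 80.5 and 68.0 CPM after 14 days and 77.5, 86.0 and 71.8 CPM after 21 days. The groups overlapped, and its log2 fold change was -0.17 (SE 0.0746) with an adjusted p of 0.250 by edgeR. Fabp12, a fatty acid-binding protein, had a value of -0.14, Fam24a of -0.11, Spam1, the sperm hyaluronidase PH-20, of -0.10 and Ssmem1 of -0.07. Fabp12 also had the largest spread within groups of all members, with an SD of 0.23 on the log2 CPM scale, followed by Tex37 with 0.19, against a median of 0.12 for the members.

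**Figure D3:**
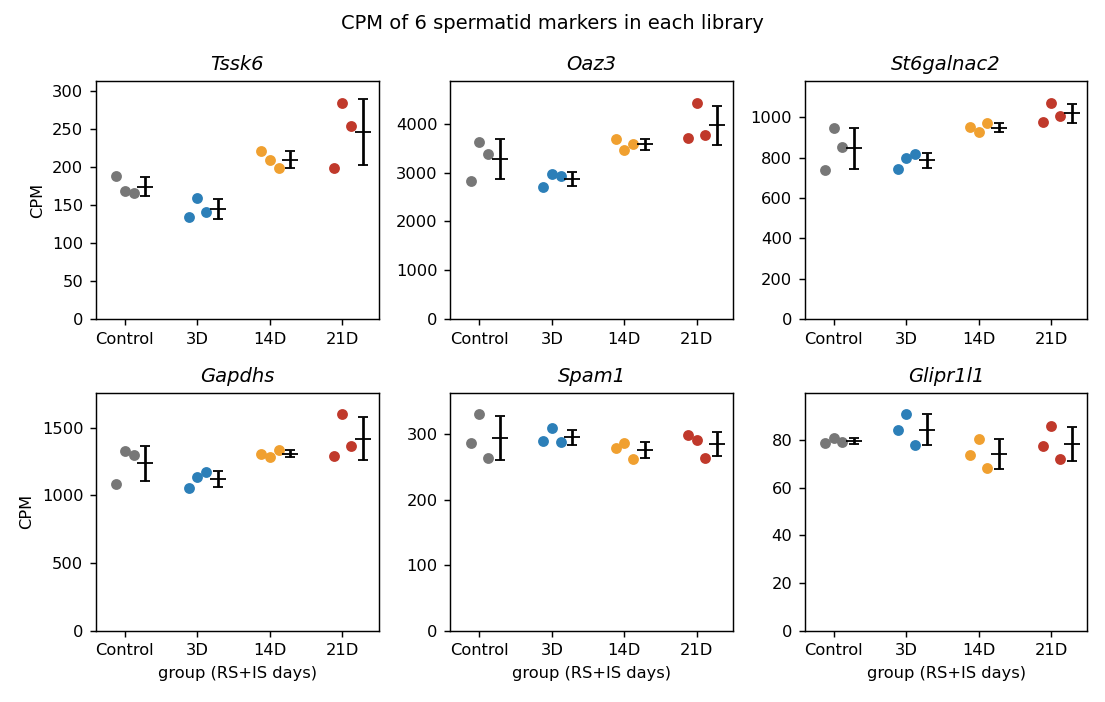
CPM (vertical axis, from 0) of 6 members in each library of the 4 groups (points), with the mean and SD of each group of 3 (bars to the right). Tssk6, Oaz3, St6galnac2 and Gapdhs have no overlap between the 3-day and the chronic libraries, while Spam1 and Glipr1l1 overlap between them.

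By role, 86 members were sorted into 11 groups and 63 remained without one. Values are log2 fold changes of the chronic over the acute libraries, and higher or lower counts are at an unadjusted p of 0.05, since edgeR called 0 members after adjustment. The counts of each group stand beside 79 of all 149 members (53.0%) and 9.45% of all features that were higher at that p. Spermatid kinases and their regulators had a median of 0.22 over 8 genes, 5 of them higher. After Tssk6 and Pde1a came Csnka2ip, a partner of casein kinase 2, with 0.29 and the kinase Tssk3 with 0.23. The FAM71 family, Golgi-associated proteins that bind RAB2, had the highest median, 0.25, with 3 of 4 members higher. Fam71f2 had 0.34, Fam71d 0.32, Fam71f1 0.18 and Fam71e1 0.16.

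Genes of the flagellum and motility had a median of 0.20, and 9 of 13 were higher. Atp1a4 with 0.34, Pmfbp1, which holds the sperm head to the tail, with 0.21, Ccdc63, needed for flagellum formation, with 0.21 and Txndc2 with 0.33 had the smallest p-values. DESeq2 called 8 of the 13 higher, beside 61 of all 149 members and 3.35% of all features. Microtubule motors and cytoskeletal genes had a median of 0.21 and 6 of 8 were higher. Among them Capza3, the spermatid subunit of the actin capping protein, had 266, 269 and 282 CPM after 3 days and 304 to 349 CPM in the chronic libraries. Ttll10, an enzyme that adds glycine chains to proteins, had 0.23, the kinesin Kif2c 0.22 and the spindle protein Knstrn 0.27.

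Acrosome, egg coat and fertilization genes stood apart from those groups by their median, which was 0.03 over 14 members, with 3 higher and 1 lower. The difference between role groups was not tested. No gene was placed in more than a single group, so this median holds for the 14 members sorted here and not for every gene with an acrosomal role. The 3 were Prss37, a protease-like acrosomal protein, with 0.32, Galntl5, a glycosyltransferase-like protein, with 0.21 and the water and glycerol channel Aqp7 with 0.16. The 1 lower was Glipr1l1. Most of the others lay close to 0. Examples chosen after their values were seen are the acrosomal membrane protein Spaca1 (0.01), the zona-binding protein Zpbp (0.01) and the egg-activating phospholipase Plcz1 (0.06).

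**Figure D4:**
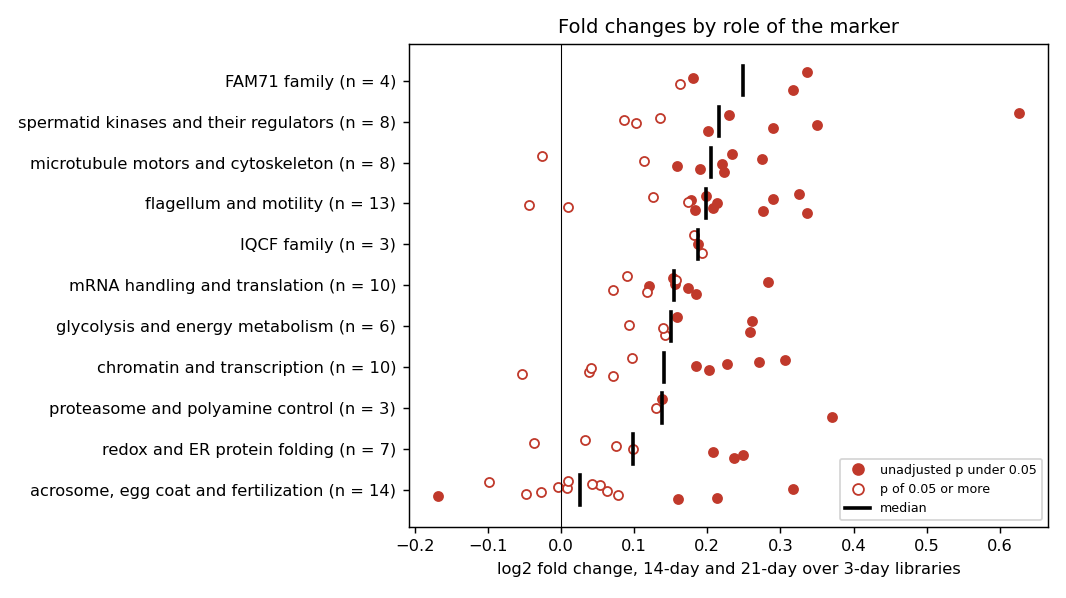
Log2 fold change of the 6 chronic over the 3 acute libraries (horizontal axis) for the 86 members in 11 role groups (vertical axis), with filled points at an unadjusted p under 0.05, open points otherwise and the median of each group as a bar. Group medians run from 0.03 for acrosome, egg coat and fertilization genes to 0.25 for the FAM71 family, and Tssk6 is the point at 0.63.

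The remaining groups lay between. Chromatin and transcription genes had a median of 0.14 with 5 of 10 higher, led by Spz1, Sox5, an HMG box transcription factor, with 0.27, and Hmgb4 with 0.18, while the linker histone Hils1 had 0.04 and Crem -0.05. For mRNA handling and translation the median was 0.15 with 6 of 10 higher, among them the RNA-binding protein Mex3d (0.28), the elongation factor subunit Eef1d (0.17), the initiation factor Eif4h (0.16) and Bzw1, a regulator of translation initiation (0.18). The 6 genes of glycolysis and energy metabolism had a median of 0.15 with 3 higher, which were Gapdhs (0.26), Hk1 (0.16) and the mitochondrial glycerol phosphate dehydrogenase Gpd2 (0.26). This set also holds the glutaredoxin Glrx2 (0.14) and the glutamine synthetase Glul (0.09), which are not glycolytic.

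Redox and protein folding genes, not all of them of the endoplasmic reticulum, had a median of 0.10 with 3 of 7 higher. The 3 were the chaperone-like ATPase Clpb (0.25), the glutathione transferase Gstt4 (0.21) and the testis calreticulin Calr3 (0.24). In proteasome and polyamine control, Oaz3 and the proteasome inhibitor Psmf1 (0.14) were higher and Psma6 had 0.13. The 3 IQCF genes had values of 0.18 to 0.19, and 1 of them, Iqcf3, was higher. The 63 members without a role group had a median of 0.15 with 33 higher, so the shift was not limited to the sorted genes.

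Members were also split by the latest round spermatid step that the marker list gives for the mouse gene matched to each. The steps were not staged in rat. The 84 genes listed to step RS4 had a median log2 fold change of 0.16 and the 47 listed to RS6 had 0.15. The 18 genes listed to RS8, the oldest round spermatids of the list, had a median of 0.23. At an unadjusted p of 0.05 by edgeR, 42 of the 84, 23 of the 47 and 14 of the 18 were higher, against 9.45% of all features. No test of the difference between steps was made. Across the 149 members, the fold change had a Spearman correlation of 0.18 with the Control TPM and of 0.26 with the length of the main transcript, as a description over genes that share their libraries.

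**Figure D5:**
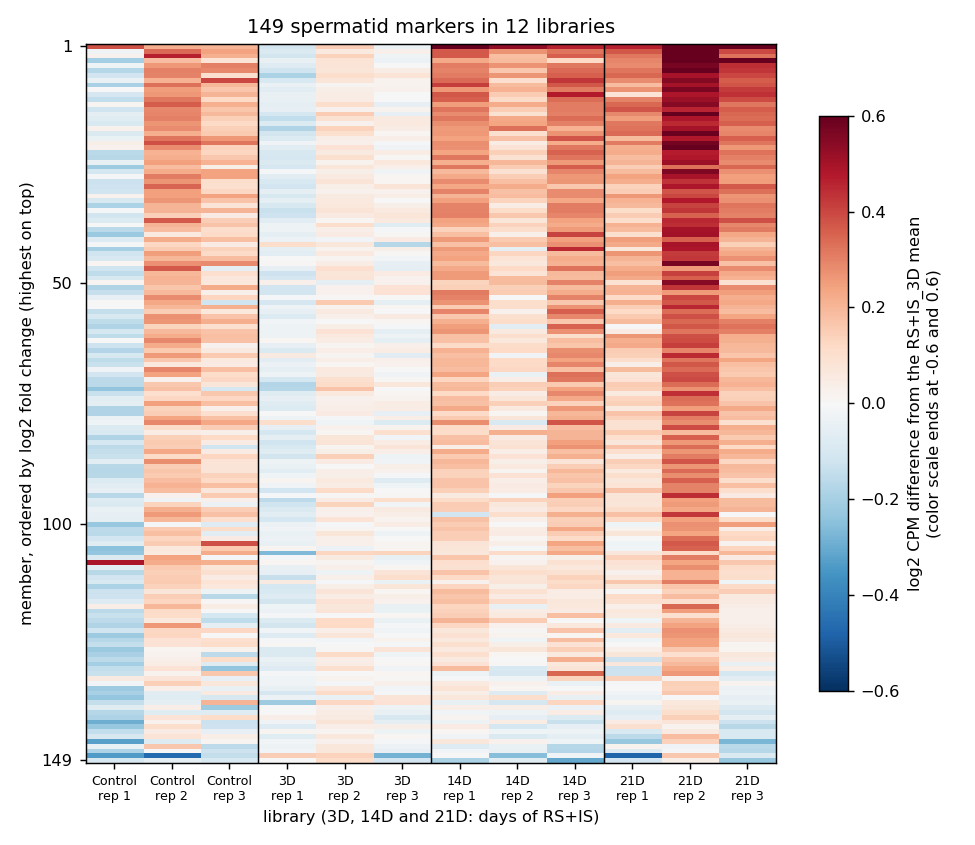
Log2 CPM difference of each library (columns, 12 libraries in 4 groups) from the mean of the RS+IS_3D libraries for the 149 members (rows, highest fold change of the chronic over the acute libraries on top). Library 2 of the 21-day group is the darkest red column, Control 1 is mostly blue, and the differences fade towards the lowest rows.

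Against Control the members gave no single direction, and since the Control libraries chose them the values are a description. After 3 days the members had a median of -0.05 on the log2 scale, with 31 of 149 values positive. It was 0.09 after 14 days, with 133 positive, and 0.15 after 21 days, with 138 positive. These medians moved with Control 1. Without it, the 3-day median was -0.13, the 14-day median 0.01 and the 21-day median 0.07. Without Control 2 the 3-day median was 0.0025.

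In 4 members (2.68%) every chronic library lay above all 6 other libraries, a share no higher than the 2.98% of all features. Besides Tssk6 these were Ttll10, Zcchc13, a zinc finger protein, and Ccer1, a germ cell protein. Glul, chosen here after its values were seen, was 1 of the 9 members for which Control 1 was not the lowest of its group. It had 1498 CPM there against 1245 and 1238 CPM in Control 2 and 3 and 1048 to 1258 CPM in the stressed rats.

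Other germ cell lists moved beside the members in the chronic against acute comparison. The 54 spermatid markers set aside by name had a median of 0.19 and the 182 under the limit a median of 0.11, with 39 and 73 higher at an unadjusted p of 0.05 (9.45% of all features). The 181 spermatocyte markers had a median of -0.07 with 44 lower at that p, and the 12 spermatogonia markers a median of -0.23 with 9 lower, where 10% of all features were lower. As shares of all TPM, the members held 5.50 to 5.88% after 3 days, 6.05 to 6.41% after 14 days and 6.30 to 6.74% after 21 days. Spermatocyte markers held 4.97 to 5.09%, 4.68 to 4.90% and 4.48 to 4.66%, and spermatogonia markers 0.0599 to 0.0630%, 0.0509 to 0.0562% and 0.0484 to 0.0531% in the same groups. The part of the other germ cell lists in the members' values was not tested. Somatic cell markers were not analysed here, since the transcripts outside the marker list carry no gene names.

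The balance of transcripts within a gene moved little for most members with 2 or more transcripts. Of these 39 members, the share of the main transcript moved by under 10 percentage points over the 12 libraries in 36. In 11 of the 39 it was over 90% in every library, which leaves little room to move, and in Tex36 it was 50% in all 12. Pkib, an inhibitor of protein kinase A chosen here after its values were seen, moved most. Its main transcript (ENSRNOT00000057364.4) held 57.8, 62.2 and 60.3% of its counts after 3 days, 77.6, 68.9 and 76.4% after 14 days and 76.5, 74.4 and 79.2% after 21 days. The acute and chronic groups did not overlap in this share, but the Control libraries with 74.6, 62.1 and 70.1% overlapped with both, and the share rests on estimated counts of transcripts that share sequence. Its summed level overlapped between the stress groups, with a log2 fold change of 0.10.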

How the data were processed

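The authors deposited, for each of the 12 testis libraries, estimated counts and TPM per transcript for 31715 Ensembl transcripts. The study names Trimmomatic, HISAT2 (Rnor_6.0) and HTSeq, without versions, but the tables hold effective lengths and fractional counts per transcript, and the program that estimated them is not given in the sources used here. The deposited TPM of each member follows from its estimated count and effective length, with 1 scale per library, to within 0.0008%. Markers were matched to transcripts by count and TPM, and the transcripts of a gene were summed. Rounded counts were tested in R 4.3.3 with edgeR 4.0.16 (TMM, filterByExpr, quasi-likelihood test, libraries of the compared groups, Benjamini-Hochberg adjustment over all features, threshold 0.05), and with DESeq2 1.42.0. The SE is the log2 fold change over the square root of F. Log2 CPM used a prior count of 2. The fits were run on simulated counts with known fold changes as a check of the code. Features were drawn independently there, with fold changes larger than the members' median, so that check does not bear on the numbers of calls. Tables were made with pandas 2.3.3, SciPy 1.17.1 and NumPy 2.4.6 in Python 3.11.15.

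The members and all gene lists were chosen with earlier results of these data known. The text names the 10 most abundant members, the 8 highest and 5 lowest fold changes of chronic over acute stress, up to 4 members per role group by p, members at the selection limit of 125 TPM, those with the widest spread and those with a promoter element. No library copied another of its group: chi-square values between libraries of a group were 8.85 to 31.5 per degree of freedom, all above sampling noise. Libraries of different groups were not compared in this way. The study describes the 3 testis samples of a group as biological replicates, and p-values measure the spread between them. No coordinates of members are given besides promoters, since the files use Rnor_6.0. Alternatives were other scalings, no low-count filter, 1 fit of all libraries, a replicate block, the most abundant transcript and leaving out each library.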

Additional observations from a re-analysis of the deposited data

How the results depend on the processing

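The medians of the members in the 4 comparisons of stress groups kept their sign under every alternative run, except 21 against 14 days without replicate 2 of the 21-day group (-0.0016). For chronic against acute stress the median ranged from 0.15 to 0.21. Counts of called members moved with the tool and not with most settings: edgeR called 0 in the 4 comparisons, while DESeq2 called 38 for 14 against 3 days, 52 for 21 against 3 days, 61 for the chronic groups together and 0 for 21 against 14 days. Scaling to the total count called 1 member for 21 against 3 days (Spz1), as did a single fit of all 12 libraries (Tssk6). Leaving out 1 library in turn gave 0 to 1 calls for the chronic groups together, which were Spz1 without replicate 2 of the 14-day group and Oaz3 without replicate 2 of the 21-day group. The cause was not tested. For the 22 genes that are among the 10 most abundant, the 8 highest or the 5 lowest fold changes, 361 of 374 values under alternatives kept their side of the threshold and 13 passed it. The 13 came from DESeq2, except that of Oaz3 without replicate 2 of the 21-day group, so the calls of these genes depended on the tool.

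Same-numbered libraries did not deviate together in every pair (correlations from -0.122 to 0.225 over the single pairs of 2 groups), so the numbers were not taken to pair samples. With a replicate block, chronic against acute stress gave a median of 0.18, 94 members higher at an unadjusted p of 0.05 and 0 called. In 1 fit of all libraries, 38 members passed an unadjusted p of 0.05 for 14 against 3 days in place of 75. For 21 against 14 days, 11 members passed it with scaling to the total count and 9 by DESeq2, in place of 2. The members' median SD within groups, 0.12 on the log2 CPM scale, sets the precision of single genes beside a median shift of 0.16.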
